A study of Sus scrofa with 220 samples.

Results

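Pig morula (M) and early blastocyst inner cell mass (EB ICM) cells were set against epiblast (EPI) cells of late blastocysts (LB) and spherical embryos (Sph), as the mean of the M and EB ICM groups against the mean of the LB EPI and Sph EPI groups. The comparison took 143 of the 220 cells of the series, by their cell type label: 46 M cells from 8 embryos, 24 ICM cells from 7, 25 LB EPI cells from 4 and 48 Sph EPI cells from 4. Raw counts were summed over the cells that each embryo gave to a group, which made 23 sums, 15 of M and ICM (70 cells) and 8 of EPI (73 cells). One further M cell, AO23_e5, was left out because its identifier gives no embryo.

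The embryos were unmodified and came from artificially inseminated crossbred sows. Single cells were sequenced with Smart-seq2, a method that covers polyadenylated transcripts over their length. M and EB embryos were dissociated after the zona pellucida had been removed with acid. LB embryos lost their trophectoderm by immunosurgery, with antiserum and complement, and in Sph embryos the EPI was separated by hand, so that stage and dissection cannot be told apart. A cell held 1012604 to 5696373 gene counts, with group medians between 1870478 in LB EPI and 2235586 in Sph EPI and totals of 1837131 to 47016945 in the sums. The embryo was read from the letters of the cell identifier, and p-values measure the spread between these sums.

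Pluripotent cells of the mammalian embryo pass from a naive state, held by factors such as KLF4, TBX3 and ESRRB in cells of the inner cell mass, to a primed state in the epiblast before gastrulation. In the mouse, the passage goes with higher de novo DNA methylation by DNMT3A and DNMT3B, with FGF, NODAL and WNT signals of the epiblast, and with a larger part for glycolysis beside mitochondrial respiration. POU5F1, NANOG and SOX2, the core factors that both states share, had no entry with a matching symbol and were not analysed here.

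**Figure D1:**
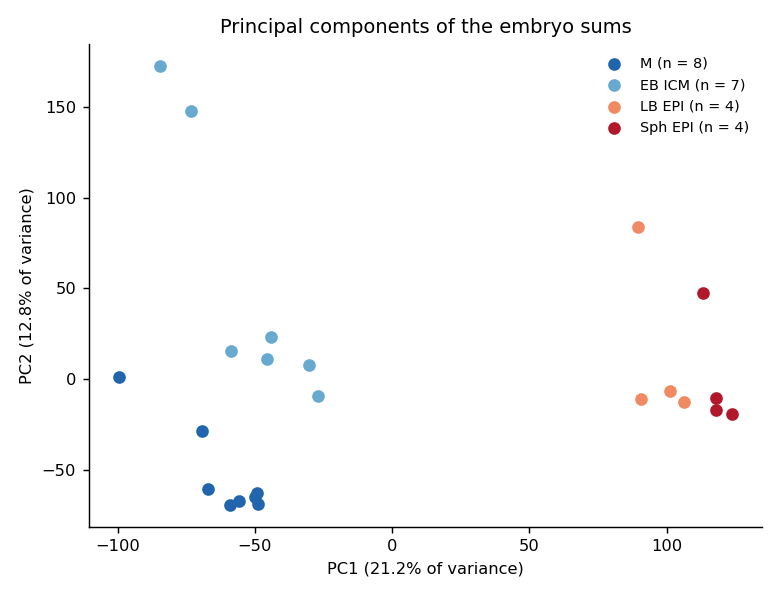
Principal components of log2(CPM + 1) in the 23 embryo sums, where CPM is counts per 1000000 counts of the sum, with TMM scaling. Each point is a sum, coloured by label. PC1 (21.2% of the variance) runs from -99.35 to -26.92 in M and ICM and from 89.68 to 123.8 in EPI.

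M and ICM shared the negative side of PC1, and both EPI groups lay on its positive side. M sums lay between -99.35 and -48.9, ICM between -84.63 and -26.92, LB EPI between 89.68 and 106.49 and Sph EPI between 113.44 and 123.8. The 2 sums that hold a single cell, ICM embryos AD and AI, stood apart on PC2, at 172.61 and 147.73 against -9.43 to 23.04 in the other ICM sums. The sums of fewest cells in the other groups were also the highest of their group on PC2. These were LB EPI embryo AN (2 cells, 83.97), Sph EPI embryo E (4 cells, 47.61) and M embryo V (2 cells, 1.19). The next highest were at -6.63, -10.45 and -28.95.

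Of 14721 genes tested, 3202 (21.8%) passed an adjusted p of 0.05 in edgeR's quasi-likelihood test. M and ICM were the higher side in 1090 of them (7.4% of genes tested) and EPI in 2112 (14.3%). At an unadjusted p under 0.05 there were 4782 genes. A log2 fold change is positive here where M and ICM were higher, and its median over all genes tested was -0.18. The sums did not overlap in 92 genes that were higher in M and ICM (0.625% of genes tested) and in 202 that were higher in EPI (1.37%), and 92 and 198 of these were called.

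The means of the 2 stages of a side were also set against those of the other side in the called genes. In 1002 of the 1090 genes higher in M and ICM, both the M and the ICM mean lay above both EPI means, and in 1996 of the 2112 genes higher in EPI both EPI means lay above the M and ICM means. This order follows in large part from choosing genes by the contrast, and its share over all genes was not counted. It is also met where 1 stage is near 0, as in CAV1, with a mean of 0.60 in LB EPI from 49 counts. The largest change between successive groups fell between ICM and LB EPI for 70.5% of the genes higher in M and ICM and for 70.9% of those higher in EPI, against 40.5% of all genes tested, which describes genes chosen by the contrast across that step. Among called genes with over 3 counts in each of the 4 groups, the median log2 fold change was 2.1 in 587 genes higher in M and ICM and -2.13 in 735 genes higher in EPI. No count was found in any EPI sum for 250 of the genes called higher in M and ICM, nor in any M or ICM sum for 617 of those called higher in EPI. Over all 14721 genes tested, called or not, 1658 had counts on 1 side only. Such genes passed the filter for testing only through cells of other groups. Without the 2 sums of a single cell, 1140 and 2031 genes were called. The number of genes called higher in M and ICM fell to 723 without Sph EPI embryo D. It was 550 in the cells of the first 4 library pools alone and 742 in those of the last 4, and the numbers higher in EPI were 1429 and 1324.

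**Figure D2:**
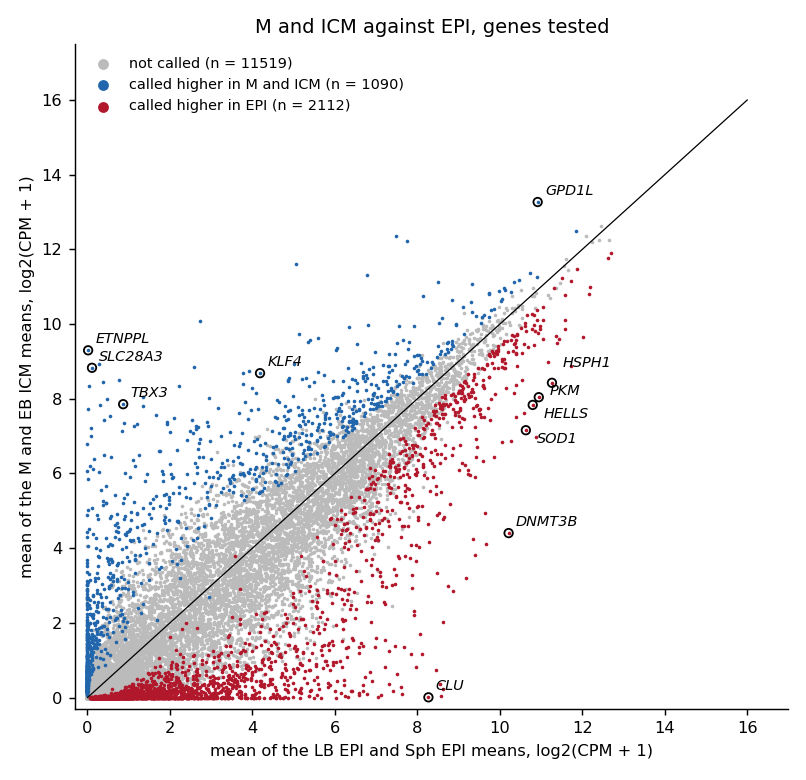
Level of each tested gene in M and ICM (vertical axis) against EPI (horizontal axis), as the mean of 2 group means of log2(CPM + 1). Blue points are the 1090 genes called higher in M and ICM and red points the 2112 called higher in EPI, with named genes circled, and the line marks equal levels. GPD1L lies highest among the circled genes, and ETNPPL, SLC28A3 and CLU lie along the axes.

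The 6 genes that mark the comparison all separated M and ICM from EPI without overlap. Of all genes tested, 0.625% did so with the higher side in M and ICM and 1.37% with it in EPI. TBX3, KLF4 and SLC28A3 fell from M and ICM to EPI, while HELLS, PKM and SOD1 rose. All 6 calls were kept under each of the 35 alternatives tried. SLC28A3, HELLS, PKM and SOD1 are also among the 10 smallest p of their direction in this comparison. The separation of the markers is therefore no separate test of it.

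TBX3 encodes a T-box factor of the naive network. Its level, as log2(CPM + 1), the scale of all levels given per sum or as mean ± SD, was 8.04, 9.09 and 9.65 in M (lowest, median and highest of 8 sums) and 4.15, 6.97 and 8.11 in ICM (7 sums). In LB EPI it was 0 in embryos AN and AP, 3.92 in AO and 2.85 in AQ, and in Sph EPI 0 in embryos C, D and F and 0.15 in E. Every M sum but the lowest exceeded every ICM sum, and all EPI sums lay below them, with the transcript in 2 LB EPI sums and as 1 count in Sph EPI embryo E. The pooled level was 234 times higher in M and ICM than in EPI, with a 95% counting interval of 208 to 265, and the adjusted p was 1.28e-07. The interval treats reads as independent and leaves out the spread between sums. The EPI reads came from LB EPI embryos AO (160 counts) and AQ (116), apart from the 1 count in Sph EPI. TPM over 1 was found in 46 of 46 M cells, 22 of 24 ICM cells and 5 of 25 LB EPI cells. No cell of 48 in Sph EPI reached it, and a count of 0 leaves room for 6.25% of cells (3 cells). Limits of this kind cover counting error only, since the cells of a stage share 4 embryos.

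KLF4, a zinc finger factor of the same network, gave 7.63, 8.47 and 10.04 in M and 7.35, 8.70 and 10.77 in ICM. It was 5.83, 4.45, 6.0 and 5.16 in LB EPI embryos AN, AO, AP and AQ, and 1.88, 2.73, 5.08 and 2.34 in Sph EPI embryos C, D, E and F. M and ICM shared one range, LB EPI lay below it, and 3 of the 4 Sph EPI sums lay below LB EPI. The log2 fold change was 4.48 ± 0.54 (SE), with an adjusted p of 1.57e-06. KLF4 was over TPM 1 in 46 of 46 M cells and 23 of 24 ICM cells, and in 7 of 25 LB EPI and 7 of 48 Sph EPI cells.

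SLC28A3 encodes a concentrative nucleoside transporter and had the smallest p of all genes with a symbol. It gave 9.91, 10.79 and 11.21 in M and 5.61, 6.86 and 8.31 in ICM, so that M exceeded ICM in every sum. In LB EPI it was 0.33, 0.12, 0 and 0.28 (AN, AO, AP, AQ), and in Sph EPI 0.08, 0.06, 0 and 0 (C, D, E, F). These EPI values stand for 6 and 3 counts, against 162222 in M and 9518 in ICM. The ratio of pooled CPM was 20600, with a counting interval of 10800 to 45000, and the adjusted p was 2.59e-13. No EPI cell was over TPM 1, and counts of 0 leave room for 12% of LB EPI and 6.25% of Sph EPI cells, by counting alone.

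HELLS, a chromatin remodeller that DNA methylation depends on, gave 6.56, 7.47 and 8.10 in M and 7.53, 8.26 and 8.72 in ICM. It was 11.49, 10.84, 11.04 and 11.49 in LB EPI (AN, AO, AP, AQ) and 9.82, 10.85, 9.96 and 10.90 in Sph EPI (C, D, E, F). LB EPI was the highest group, with its lowest sum below 2 of the Sph EPI sums. The log2 fold change was -2.97 ± 0.19 (SE), with an adjusted p of 1.75e-11. HELLS was over TPM 1 in nearly all cells of each group, from 45 of 46 M cells to all 25 LB EPI and 48 Sph EPI cells, and its median level over cells was 48.4 TPM in M, 98.6 in ICM, 835 in LB EPI and 454 in Sph EPI.

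PKM, pyruvate kinase of the last step of glycolysis, gave 6.50, 7.84 and 8.30 in M and 7.90, 8.57 and 9.08 in ICM. It was 10.58, 10.50, 10.69 and 10.49 in LB EPI and 11.56, 11.20, 11.26 and 11.27 in Sph EPI, in the same order of embryos. Each EPI group held a narrow range, and every Sph EPI sum lay above every LB EPI sum. The log2 fold change was -2.82 ± 0.20 (SE), with an adjusted p of 1.56e-10.

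SOD1, the cytosolic superoxide dismutase, gave 5.32, 6.84 and 7.81 in M and 6.98, 7.61 and 8.13 in ICM. It was 11.06, 10.02, 10.16 and 10.74 in LB EPI and 11.27, 10.72, 10.68 and 10.41 in Sph EPI. The M and ICM ranges overlapped each other, as did those of both EPI groups. The log2 fold change was -3.44 ± 0.23 (SE), with an adjusted p of 4.83e-11.

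**Figure D3:**
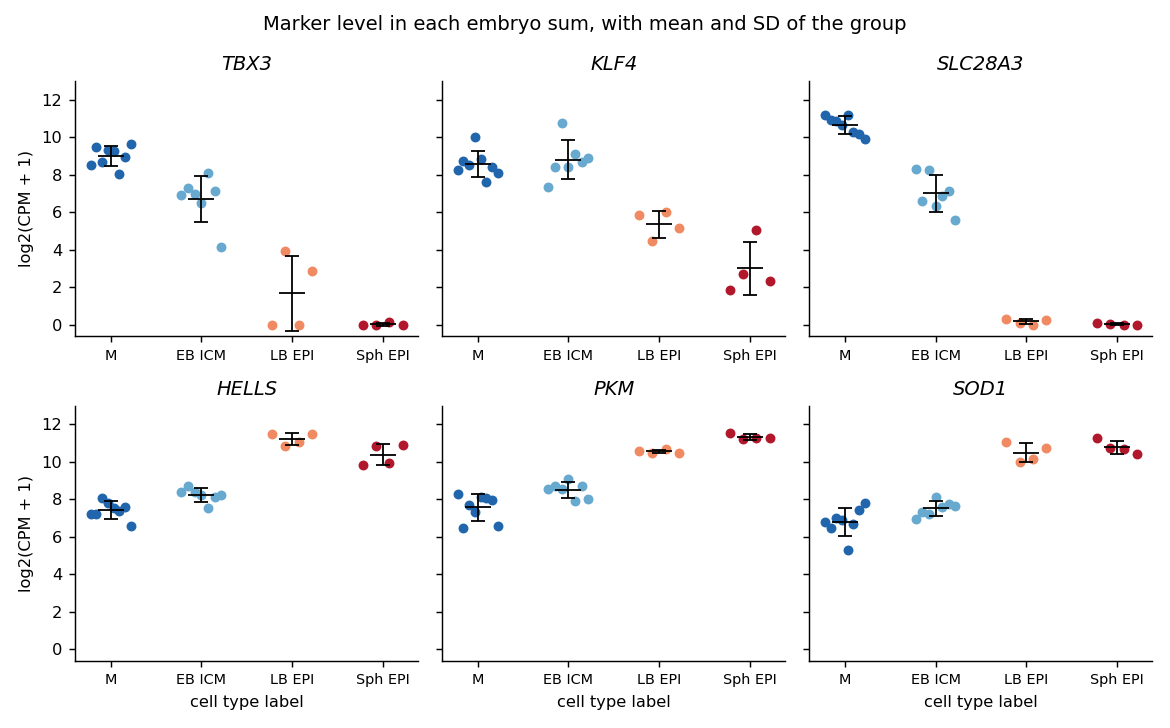
Level of the 6 marker genes, as log2(CPM + 1) (vertical axis), in each embryo sum of M, EB ICM, LB EPI and Sph EPI. Points are sums, and bars are the mean and SD of the group. TBX3, KLF4 and SLC28A3 are higher in M and ICM, and HELLS, PKM and SOD1 in EPI, without overlap.

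After SLC28A3, ETNPPL and XPNPEP2 led the genes that were higher in M and ICM. Both were close to absent from EPI, where ETNPPL had 3 counts and XPNPEP2 had 2. ETNPPL, a lyase that breaks down phosphoethanolamine, gave 8.85, 10.12 and 10.69 in M and 7.82, 8.55 and 9.44 in ICM, and was 0 in all EPI sums but Sph EPI embryo C, at 0.13. Its pooled level was 54800 times higher in M and ICM (counting interval 18700 to 266000), with an adjusted p of 3.19e-13. XPNPEP2, a membrane-bound aminopeptidase, gave 5.71, 7.75 and 8.27 in M and 7.41, 8.02 and 8.91 in ICM, and was 0.08 in LB EPI embryos AP and AQ and 0 in the other 6 EPI sums. The ratio was 17200 (counting interval 4750 to 142000) and the adjusted p 7.88e-13. ETNPPL thus tended to be higher in M than in ICM and XPNPEP2 in ICM, with overlapping ranges in both.

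The rest of the first 10 included genes that EPI cells kept at a lower level. GPD1L, a glycerol-3-phosphate dehydrogenase, was high in all groups and had means of 13.78 ± 0.34 (SD, n = 8) in M, 12.76 ± 0.43 (n = 7) in ICM, 11.13 ± 0.22 (n = 4) in LB EPI and 10.71 ± 0.31 (n = 4) in Sph EPI. Its log2 fold change was 2.38 ± 0.16 (SE), with an adjusted p of 5.29e-11. BAD, a promoter of cell death of the BCL2 family, fell from 8.20 ± 0.60 in M and 8.60 ± 0.38 in ICM to 5.02 ± 0.67 in LB EPI and 2.51 ± 0.68 in Sph EPI (means ± SD), a log2 fold change of 4.72. HIGD1A, a protein of the inner mitochondrial membrane, had a log2 fold change of 1.80, CPPED1, a phosphatase, of 3.16, and RIMKLB, which joins glutamate to N-acetylaspartate, of 4.34. SMPDL3A, a phosphodiesterase related to acid sphingomyelinase, had a log2 fold change of 10.93 and rested on 8 counts in LB EPI and 63 in Sph EPI, against 96066 in M and 22749 in ICM. All of these calls were kept under the 35 alternatives.

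CLU led the genes that were higher in EPI. It encodes clusterin, a secreted chaperone, and had 1 count in 15 M and ICM sums, in M embryo U at 0.11. In LB EPI it was 9.31, 10.35, 9.57 and 8.77 (AN, AO, AP, AQ) and in Sph EPI 6.94, 6.30, 7.05 and 7.85 (C, D, E, F). LB EPI exceeded Sph EPI in every sum. The pooled level was 51100 times higher in EPI, with a counting interval of 9170 to 2020000 that reflects the single count, and the adjusted p was 3.54e-13. Among the first 10, SLC10A4, a member of the bile acid transporter family, and ABTB3 also had 1 count in M and ICM, against 29822 and 14769 in EPI. CHRNA3, a subunit of the nicotinic acetylcholine receptor, had 7 counts against 18495.

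UCHL1, a ubiquitin hydrolase known from neurons and the germ line, averaged 0.46 ± 0.82 in M, 0.03 ± 0.07 in ICM, 8.16 ± 0.25 in LB EPI and 9.10 ± 0.41 in Sph EPI. PSIP1, a chromatin-bound coactivator, rose over all 4 groups, from 5.11 ± 0.76 in M to 6.88 ± 0.52 in ICM, 8.98 ± 0.80 in LB EPI and 9.46 ± 0.23 in Sph EPI, with a log2 fold change of -3.22. HSPH1, a heat shock protein, differed by -2.77 on the log2 scale, and its sums overlapped: LB EPI averaged 12.78 ± 0.60, Sph EPI 9.75 ± 0.18, M 8.88 ± 0.34 and ICM 7.98 ± 0.80.

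A further ranking by fold change took only genes without overlap, with over 3 counts in each of the 4 groups and at least 10 CPM in the higher side. These conditions left 49 genes with a symbol that were higher in M and ICM and 88 that were higher in EPI. SMPDL3A led the first 10 of M and ICM. The others were ARG1, arginase (log2 fold change 7.20), TMEM86A, which cleaves lysoplasmalogens (7.0), GLDC, the glycine decarboxylase (6.53), and PHYHD1, a dioxygenase (5.97), with the transcription factors SPIC (6.69) and GATA6 (6.39), the chromatin proteins ATAD2 (7.10) and MACROH2A1, a histone H2A variant (5.12), and the phosphatase UBASH3B (6.71). TMEM86A was steady within M (10.08 ± 0.32) and ICM (10.10 ± 0.49) and varied between EPI sums (3.46 ± 2.34 in LB and 2.01 ± 1.37 in Sph). SPIC averaged 8.01 ± 0.61 in ICM and 6.62 ± 0.96 in M, and GATA6 7.18 ± 0.72 in ICM and 8.94 ± 0.59 in M.

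On the EPI side the first 10 were KIF5C, a kinesin heavy chain (log2 fold change -10.30), CYRIA, a regulator of actin through RAC1 (-8.12), MYO5C, an unconventional myosin (-6.99), VIM, vimentin (-6.03), MAP1B, a microtubule-associated protein (-5.88), and 5 others. Of these, USP44, a deubiquitinase, changed by -7.58, TCEAL9 by -7.22, SOCS5, an inhibitor of cytokine signalling, by -6.13, BEX1 by -5.91 and KCNK1, a potassium channel, by -5.82. KIF5C averaged 8.10 ± 0.61 in LB EPI and 9.01 ± 0.31 in Sph EPI, against 0.66 ± 1.22 in M and 0.05 ± 0.14 in ICM. VIM was found in 1 M sum and in 1 ICM sum, the single cell of embryo AI, and averaged 7.42 ± 0.63 in LB EPI and 7.62 ± 0.86 in Sph EPI.

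**Figure D4:**
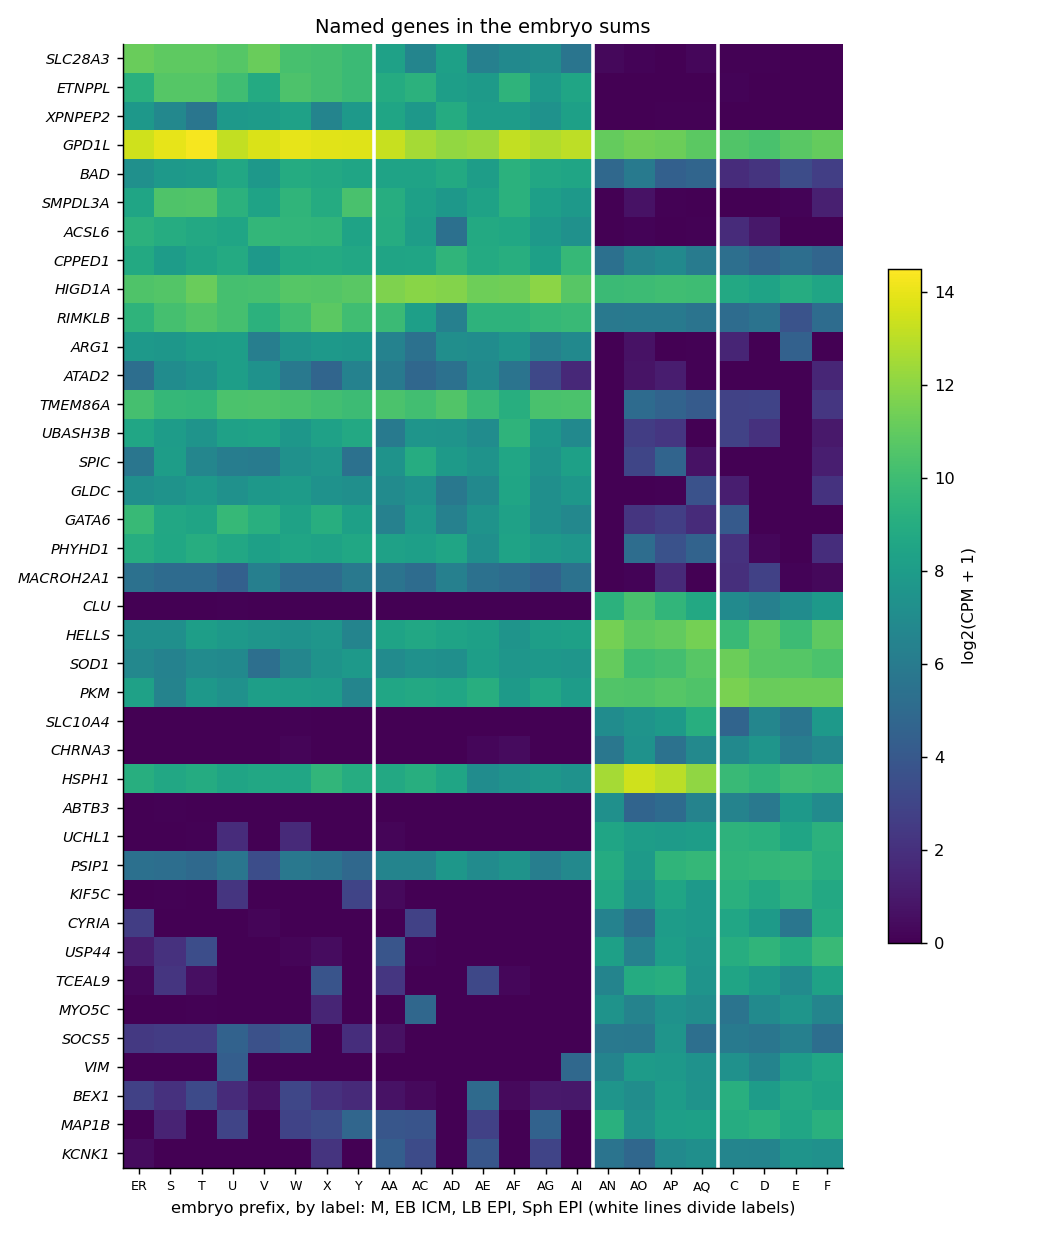
Level of 39 named genes in the 23 embryo sums, as log2(CPM + 1), with brighter colours for higher levels. Rows are the genes with the smallest p and the largest changes, those higher in M and ICM first, and columns are sums grouped by label. In both blocks of rows, the colour changes at the line between ICM and LB EPI.

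For genes with no count on one side, a fold is given against 3 counts over the pooled sums of the empty side, and covers the counting of reads only. LIPH, a phospholipase that makes lysophosphatidic acid, was at least 5573-fold higher in M and ICM, with means of 5.41 ± 2.02 in M and 6.72 ± 0.55 in ICM. SERPINB10, HNF4A and CCR1 were at least 4171-fold, 3295-fold and 2683-fold higher and were mainly ICM genes, with means of 5.31, 6.12 and 5.39 in ICM against 2.05, 1.06 and 0.87 in M. The sums of LIPH did not overlap with EPI, whereas some M or ICM sums of the other 3 held no more than EPI.

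On the EPI side, HAS2, the hyaluronan synthase, was at least 7001-fold higher and was found in all 8 sums, at 3.72 ± 0.70 in LB EPI and 7.61 ± 1.21 in Sph EPI. TRIP6, an adaptor of focal adhesions, was at least 4397-fold higher, at 6.58 ± 0.94 and 5.46 ± 1.63. GEM, a small GTP-binding protein, was at least 4634-fold higher and belonged to LB EPI (6.87 ± 1.56 against 1.30 ± 1.56 in Sph EPI). CAV1, caveolin, and VSNL1, a neuronal calcium sensor, were at least 4286-fold and 3353-fold higher and belonged to Sph EPI, at 7.11 ± 1.05 and 6.91 ± 0.44 against 0.60 ± 1.21 and 1.13 ± 2.05 in LB EPI. The CAV1 call was lost without LB EPI embryo AO, the sole LB EPI sum with its counts, where the adjusted p was 1. For VSNL1, DESeq2 gave no adjusted p, which was counted as a lost call.

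For the gene lists that follow, the shares of all genes tested were 7.4% called higher in M and ICM and 14.3% in EPI. Together they made 21.8%. Of 14 naive factors tested, 5 were higher in M and ICM, 2 were higher in EPI and 7 were not called, with a median log2 fold change of -0.04. Besides TBX3 and KLF4, TFAP2C, an AP-2 factor, fell in steps, from 10.38 ± 0.54 in M and 9.59 ± 0.81 in ICM to 8.75 ± 0.75 in LB EPI and 4.84 ± 1.43 in Sph EPI (log2 fold change 3.04 ± 0.39 SE, adjusted p 4.01e-06). GBX2, a homeobox factor, went the other way: it had no count in M and ICM and averaged 2.28 ± 1.97 in LB EPI and 1.11 ± 1.72 in Sph EPI (adjusted p 0.00321). Of 19 primed and epiblast factors, 12 were higher in EPI, 1 was higher in M and ICM and 6 were not called, with a median of -3.97. DNMT3B, a de novo DNA methyltransferase, averaged 3.62 ± 2.02 in M and 5.18 ± 1.18 in ICM against 10.23 ± 1.0 in LB EPI and sums of 9.9 to 10.43 in Sph EPI (log2 fold change -5.35 ± 0.61 SE, adjusted p 6.48e-07). NODAL, the ligand of the activin receptors in the epiblast, had no count in M and ICM and was found in all 8 EPI sums, at 4.33 ± 0.41 and 5.14 ± 0.45, at least 1449-fold higher (adjusted p 1.1e-05).

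Of 13 oocyte and cleavage stage transcripts tested, 1 was higher in M and ICM, 2 were higher in EPI and 10 were not called. The called share was 23.1%, against 21.8% of all genes tested. The median was 3.29, or 3.85 with the 6 genes that lack counts on one side set at their bound. With limma on TPM it was 0.145. No gene was called higher in M and ICM with limma on TPM or with filterByExpr, which kept 8 genes, and 6 were with 2 groups. The summed level of the list was higher in EPI. It ranged from 53.8 to 161 CPM in M, 0 to 101.2 in ICM, 304.5 to 430.4 in LB EPI and 417.3 to 1028 in Sph EPI. Most of the EPI level was 1 gene, UCHL1, so it does not describe the list as a whole. The mean CPM of UCHL1, with TMM scaling, was 0.62 in M, 0.02 in ICM, 287.9 in LB EPI and 563 in Sph EPI. The call for ZP3, a protein of the zona pellucida, rested on 43 counts in M and 17 in ICM and was lost under 14 alternatives. The EPI calls were UCHL1 and ZAR1, an oocyte factor, which had no count in M, 23 in ICM, 1328 in LB EPI and 435 in Sph EPI (adjusted p 0.000836).

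In the JAK-STAT list, 3 of 25 genes were higher in M and ICM and 4 in EPI, with 18 not called and a median of 0.22. The called share was 28%, against 21.8% of all genes tested. The balance turned to 5 and 4 with limma on TPM. IL6R, a receptor of interleukin 6, was highest in ICM (10.04 ± 0.83), with 5.10 ± 1.40 in M, 2.11 ± 1.74 in LB EPI and 1.23 ± 1.42 in Sph EPI (log2 fold change 6.04 ± 0.93 SE, adjusted p 4.49e-05). STAT2 followed the same order, with 8.20 ± 0.69 in ICM, 5.54 ± 1.25 in M and 4.06 ± 1.72 and 4.01 ± 0.48 in LB and Sph EPI (adjusted p 0.000394). On the EPI side stood SOCS5 and IL11RA, the interleukin 11 receptor, which had 2 counts in ICM, none in M and 4260 in EPI, most of them in Sph EPI (adjusted p 6.54e-05).

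In the NODAL, TGF-beta and BMP list, 6 of 32 genes were higher in EPI, 1 was higher in M and ICM and 25 were not called, with a median of -0.83. The called share was 21.9%, against 21.8% of all genes tested. Beside NODAL itself, its receptor ACVR1C had no count in M and ICM and was at least 140.5-fold higher in EPI. It also had no count in LB EPI embryo AN and Sph EPI embryos D and E. The related ligand GDF3 averaged 5.09 ± 0.92 in M, 3.65 ± 2.61 in ICM, 6.75 ± 0.29 in LB EPI and 7.54 ± 1.54 in Sph EPI (log2 fold change -2.33 ± 0.65 SE, adjusted p 0.0124). In the first 4 pools alone neither ACVR1C nor GDF3 was called, nor was GDF3 with all 7 lineages in one model. SMAD6, an inhibitor of BMP signals, was the gene higher in M and ICM, with 511 counts against 1. In the FGF and ERK list, 7 of 26 genes were higher in EPI, 1 was higher in M and ICM and 18 were not called, with a median of -0.14. The called genes included the ligand FGF19 (7.05 ± 1.20 in LB EPI and 6.42 ± 1.01 in Sph EPI against 1.12 ± 1.89 in ICM and no count in M) and genes that ERK signals induce in many cells. Of these, ETV4 averaged 5.91 ± 0.09 in LB EPI and 5.77 ± 0.33 in Sph EPI against 0.57 ± 1.46 in M and no count in ICM. ETV1 was already at 5.65 ± 1.38 in ICM, with 0.90 ± 1.69 in M, 7.69 ± 0.60 in LB EPI and 8.06 ± 0.22 in Sph EPI. DUSP4, a phosphatase that acts on ERK, had no count in ICM, 103 in M, 587 in LB EPI and 3334 in Sph EPI.

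In the WNT list, 9 of 38 genes were higher in EPI, 2 were higher in M and ICM and 27 were not called, with a median of -0.35. The first of them were inhibitors and a receptor: FRZB and SFRP2, secreted proteins that bind WNT, were at least 975-fold and 759-fold higher in EPI, and FZD2, a frizzled receptor, at least 840-fold. All 3 had no count in M and ICM and averaged more in Sph EPI (4.74, 4.56 and 4.39) than in LB EPI (2.27, 1.36 and 2.41). In LB EPI embryo AN none of them had a count, nor did SFRP2 in AO. WNT10B, a ligand, had 264 counts in LB EPI, 33 in Sph EPI and none in M and ICM, and its call was lost under 3 alternatives, one of them without Sph EPI embryo F.

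In the glycolysis list, 11 of 27 genes were higher in EPI, 2 were higher in M and ICM and 14 were not called, with a median of -0.99. GAPDH, which oxidises glyceraldehyde 3-phosphate, averaged 6.45 ± 0.61 in M, 5.47 ± 1.41 in ICM, 8.74 ± 0.27 in LB EPI and 9.81 ± 0.76 in Sph EPI without overlap (log2 fold change -3.12 ± 0.36 SE, adjusted p 6.78e-07). ENO2, an enolase, had 1 count in M and ICM and 1505 in EPI, with none in LB EPI embryo AO and Sph EPI embryos D and E. UCP2, a carrier of the inner mitochondrial membrane, averaged 0.03 ± 0.08 in M, 1.09 ± 1.75 in ICM, 5.22 ± 1.11 in LB EPI and 5.92 ± 0.55 in Sph EPI (adjusted p 6.54e-05).

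Of 20 subunits of respiratory complex I encoded in the nucleus, 8 were higher in M and ICM, none in EPI and 12 were not called, with a median of 0.36. Of 21 genes of complexes III to V, 6 were higher in M and ICM, none in EPI and 15 were not called, with a median of 0.54. COX4I1, of complex IV, averaged 10.54 ± 0.44 in M, 10.12 ± 0.20 in ICM, 9.24 ± 0.19 in LB EPI and 9.41 ± 0.05 in Sph EPI, without overlap (log2 fold change 1.03 ± 0.15 SE, adjusted p 1.53e-05). CYCS, cytochrome c, changed by 0.73 ± 0.15, and NDUFA11 and NDUFA8, of complex I, by 1.23 ± 0.25 and 0.94 ± 0.19 (log2 fold change ± SE). COX4I1, NDUFA11 and NDUFA8 kept their calls under all 35 alternatives. Of the other members named by the rule, the call was lost under 9 for COX5A, 3 for COX17, 2 for NDUFS5 and 1 each for NDUFB9 and CYCS. NDUFS5 had medians of 7.19 in M, 7.11 in ICM, 4.83 in LB EPI and 6.94 in Sph EPI. The calls in M and ICM numbered 10 and 10 under DESeq2, 9 and 10 without TMM, 11 and 13 with limma on TPM, 2 and 3 in the first 4 pools and 5 and 4 in the last 4. Neither list had a call in EPI under DESeq2, without TMM or with limma on TPM, nor a gene with an unadjusted edgeR p under 0.05 in that direction, of which there were 10 and 12 towards M and ICM. No symbol matched a gene encoded in the mitochondrial genome, so none is described.

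In the tricarboxylic acid cycle, 4 of 25 genes were higher in M and ICM, 2 were higher in EPI and 19 were not called, with a median of -0.06. The called share was 24%, against 21.8% of all genes tested. DLD, the dihydrolipoamide dehydrogenase, and IDH1, the cytosolic isocitrate dehydrogenase, changed by 1.16 ± 0.19 and 1.20 ± 0.25, and MDH1, the cytosolic malate dehydrogenase, by -2.02 ± 0.53 (log2 fold change ± SE). Glycogen genes gave 1 call on each side among 14, with a median of 0.07, PHKA1, a subunit of phosphorylase kinase, in M and ICM and PYGM, the muscle glycogen phosphorylase, in EPI. The PYGM call was lost under 3 alternatives, among them leaving out LB EPI embryo AO, where the adjusted p was 0.227, and the PHKA1 call in the last 4 pools.

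Of 35 fatty acid genes tested, 6 were higher in M and ICM, 11 were higher in EPI and 18 were not called, with a median of -0.05. With limma on TPM there were 10 on each side. Of the acyl-CoA synthetases, ACSL6 belonged to M (9.07 ± 0.48) and ICM (7.85 ± 1.26), with 2 counts in LB EPI and 105 in Sph EPI (adjusted p 3.9e-09). ACSL4 belonged to LB EPI (5.10 ± 0.82) and Sph EPI (7.40 ± 0.42), with no count in M and 4 in ICM (adjusted p 4.61e-08). CPT1C, a carnitine palmitoyltransferase known from neurons, had no count in M and ICM and was at least 1844-fold higher in EPI.

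Among antioxidant and redox enzymes, 8 of 33 were higher in EPI, 4 were higher in M and ICM and 21 were not called, with a median of -0.27. The peroxiredoxins PRDX1 and PRDX2, which break down peroxide, changed by -2.54 ± 0.33 and -1.94 ± 0.24 (log2 fold change ± SE), beside SOD1. PRDX2 rose before the EPI stages, from 7.46 ± 0.86 in M to 9.56 ± 0.43 in ICM, with 10.57 ± 0.47 and 10.52 ± 0.21 in LB and Sph EPI. NQO1, a quinone reductase, had no count in M and ICM and was at least 1017-fold higher in EPI. It also had no count in LB EPI embryo AN and Sph EPI embryo E, and 7 in LB EPI embryo AQ.

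Of 30 nucleoside transport and nucleotide synthesis genes, 8 were higher in M and ICM, 4 were higher in EPI and 18 were not called, with a median of 0.04. Beside SLC28A3, they held PNP, the purine nucleoside phosphorylase (log2 fold change 1.88 ± 0.21 SE, without overlap), MTHFD2, a mitochondrial folate enzyme (1.73 ± 0.36), and PPAT, the first enzyme of purine synthesis (0.95 ± 0.21).

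In the DNA methylation list, 8 of 20 genes were higher in EPI, 1 was higher in M and ICM and 11 were not called, with a median of -1.04. Beside HELLS and DNMT3B these included CDCA7, a partner of HELLS, at 4.18 ± 1.0 in M, 3.40 ± 2.49 in ICM, 7.36 ± 0.89 in LB EPI and 8.05 ± 0.79 in Sph EPI. TET1, which oxidises methylcytosine, was the gene higher in M and ICM: it averaged 10.14 ± 0.67 in M and 7.49 ± 1.19 in ICM against 6.91 ± 0.61 in LB EPI and 5.72 ± 2.26 in Sph EPI (log2 fold change 2.33 ± 0.46 SE, adjusted p 0.000782).

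Polycomb genes gave 5 calls on each side among 25, with a median of -0.22. There were 5 in M and ICM and 3 in EPI without TMM and with limma on TPM, and 6 and 2 in the last 4 pools. Those higher in M and ICM included 3 of complex PRC2, EED (log2 fold change 1.99 ± 0.36 SE), the methyltransferase EZH2 (2.34 ± 0.43) and AEBP2 (1.90 ± 0.36), and among those higher in EPI was RNF2, the ubiquitin ligase of PRC1 (-2.03 ± 0.49).

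Few genes of the cell cycle were called. Of 32 genes of DNA replication licensing, 2 were higher in M and ICM, 1 was higher in EPI and 29 were not called, with a median of 0.09, and the call of CDT1, a licensing factor, was lost under 16 alternatives. None of the 23 cyclins and cell cycle kinases tested was called by edgeR, with a median of -0.39. At an unadjusted p under 0.05 there were 2, both higher in EPI, and DESeq2 called 1 and limma on TPM none. The smallest p among them belonged to BUB3, of the spindle checkpoint, with a log2 fold change of -0.49 ± 0.20 and an adjusted p of 0.0779, and WEE1, an inhibitor of CDK1, came next with -2.52 ± 1.15 and 0.124. BUB3 passed the threshold under 12 of the 35 alternatives, DESeq2 among them.

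Chaperones were higher in EPI: 20 of 38 were called there, against 1 in M and ICM and 17 not called, with a median of -0.68. TCP1, a subunit of the chaperonin of the cytosol, averaged 10.35 ± 0.14 in M, 9.89 ± 0.42 in ICM, 11.64 ± 0.26 in LB EPI and 11.51 ± 0.14 in Sph EPI without overlap (log2 fold change -1.44 ± 0.12 SE, adjusted p 5.47e-09). HSP90AB1 likewise reached 12.24 ± 0.40 in LB EPI and 12.07 ± 0.10 in Sph EPI from 10.80 ± 0.40 in M and 10.79 ± 0.50 in ICM. DNAJA1, a cochaperone, resembled HSPH1 in being highest in LB EPI, at 12.06 ± 0.66, against 10.71 ± 0.66 in Sph EPI. LB embryos were the only ones to pass through immunosurgery, and the part of that step in these levels was not tested.

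In the junction list, 5 of 29 genes were higher in M and ICM, 7 were higher in EPI and 17 were not called, with a median near 0. Under DESeq2 and with limma on TPM there were 7 on each side. GJB5, a connexin of gap junctions, averaged 8.03 ± 0.72 in M, 7.98 ± 0.43 in ICM, 0.94 ± 1.60 in LB EPI and 0.01 ± 0.03 in Sph EPI, and CLDN8, a claudin, 8.90 ± 0.55, 5.99 ± 2.76, 0.79 ± 1.53 and 0. On the EPI side were CLDN6, another claudin, and F11R, a junctional adhesion molecule, with log2 fold changes of -1.92 ± 0.25 and -2.36 ± 0.29 (SE). Surface antigens gave 6 calls on each side among 24, with a median of 0.84. PECAM1 was an ICM gene (7.04 ± 1.74, against 1.86 ± 1.83 in M, 1.36 ± 2.29 in LB EPI and 0.01 ± 0.02 in Sph EPI), and CD83 and CD79B had no count in M and ICM, and were at least 498-fold and 839-fold higher in EPI. CD83 also had no count in LB EPI embryo AO and Sph EPI embryo E, and CD79B none in LB EPI embryo AN. EPHA2, a receptor of ephrins, was called higher in EPI although ICM was its highest group, at 5.78 ± 1.97, since M had 1 count. LB EPI averaged 3.97 ± 0.91 and Sph EPI 3.44 ± 0.99, and M and ICM became the higher side with limma on TPM and when every sum of a side had the same weight.

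In the trophectoderm list, 8 of 18 genes were higher in M and ICM, 4 were higher in EPI and 6 were not called, with a median of 2.76. The summed level of the list ranged from 2786 to 8486 CPM in M, 526.1 to 1186 in ICM, 2951 to 5347 in LB EPI and 2966 to 9885 in Sph EPI. In EPI most of it was the keratins KRT8 and KRT18, so it does not describe the list as a whole. Their median CPM was 2170 and 2160 in LB EPI and 6400 and 1610 in Sph EPI. DAB2, an endocytic adaptor, was an M gene (9.51 ± 0.58, against 3.49 ± 1.69 in ICM, 1.24 ± 1.45 in LB EPI and 1.28 ± 1.40 in Sph EPI), whereas the keratins KRT8 and KRT18 were higher in EPI, by -2.58 ± 0.37 and -2.94 ± 0.36 (log2 fold change ± SE). KRT18 averaged 9.85 ± 0.95 in M, 5.40 ± 0.99 in ICM, 10.98 ± 0.39 in LB EPI and 10.19 ± 1.5 in Sph EPI. Of the defining factors of the lineage, GATA2 had 884 counts in M, 232 in ICM, 45 in LB EPI and 1 in Sph EPI, GATA3 had 1145, 86, 10 and 81, and CDX2 had 27 in M and none in ICM and EPI.

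In the hypoblast list, 6 of 16 genes were higher in M and ICM, 2 were higher in EPI and 8 were not called, with a median of -0.55. Its summed level ranged from 364 to 1005 CPM in M, 675 to 3474 in ICM, 109 to 567 in LB EPI and 304 to 419 in Sph EPI, and the calls were 4 on each side with limma on TPM. GATA6 and HNF4A are among the genes described above. APOA2, an apolipoprotein, averaged 6.03 ± 3.08 in ICM, 2.84 ± 1.87 in M, 1.90 ± 2.89 in LB EPI and 0.01 ± 0.02 in Sph EPI, and APOE was higher in EPI, at 3.85 ± 2.67 in LB and 6.17 ± 0.77 in Sph against 0.01 ± 0.03 in M and 1.36 ± 1.94 in ICM. GATA4 had 129 counts in M, 102 in ICM and none in EPI, and SOX17 had no matched entry. The part of trophectoderm and hypoblast genes in the other lists was not tested.

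Of 8 mesoderm and germ line genes, 2 were called on each side, with a median of -0.12. PRDM1, a transcriptional repressor, had no count in M and ICM and averaged 4.67 ± 1.01 in LB EPI and 2.19 ± 1.46 in Sph EPI. GSC, a homeobox factor, was higher in M (3.0 ± 1.71) and ICM (3.67 ± 0.91) than in LB EPI (1.03 ± 1.16) and Sph EPI (0.09 ± 0.15). Summed, this list ranged from 732 to 2588 CPM in M, 318 to 1960 in ICM, 237 to 919 in LB EPI and 25.1 to 97.8 in Sph EPI. TFAP2C, described above as a naive factor, is also in this list and is 1 of its 2 calls in M and ICM. Most of the M, ICM and LB EPI level was TFAP2C, so it does not describe the list as a whole. The mean CPM of TFAP2C, with TMM scaling, was 1419 in M, 883.5 in ICM, 474.7 in LB EPI and 38.99 in Sph EPI. Of 9 genes of endometrium, blood and macrophages, 1 was higher in M and ICM, HBB, a beta globin, with 160 counts in M, 1706 in ICM and 1 in EPI, and 2 were higher in EPI, UPK1B, a uroplakin, and VIM. The summed level of this list was at most 19.2 CPM in M and 174 in ICM, and ranged from 167 to 348 in LB EPI and 148 to 420 in Sph EPI. Most of the EPI level was VIM, with a mean CPM, with TMM scaling, of 181.2 in LB EPI and 222.2 in Sph EPI.

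**Figure D5:**
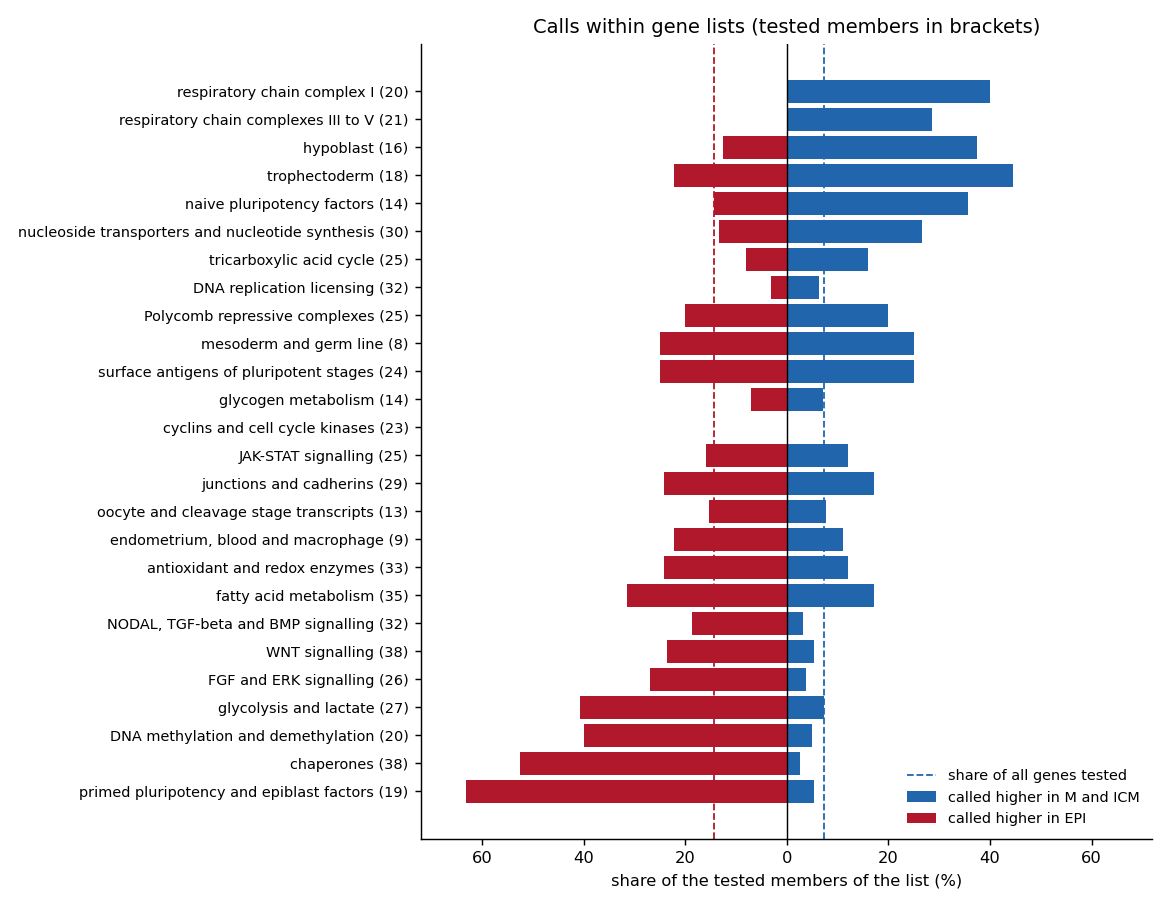
Share of the tested members of each gene list that was called higher in M and ICM (blue, to the right) or in EPI (red, to the left), in percent. Dashed lines are the shares of all genes tested, 7.4% and 14.3%. Primed factors, chaperones, DNA methylation and glycolysis lie furthest to the left, and both respiratory chain lists have no red bar.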

How the data were processed

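Single cells of pig embryos were sequenced with Smart-seq2 in 8 library pools. After scythe and sickle trimming, the authors aligned reads to Sus scrofa 10.2 with HISAT2 2.1.0, counted unique alignments on Ensembl genes with htseq-count, and removed cells with under 1000000 gene reads, a mitochondrial share of 0.5 or more, or an outlying t-SNE position (4 cells). Raw counts and TPM of each gene in each cell were used here as deposited. The tables hold 22840 entries, 16 of them added by the authors, and a table of Ensembl names gave symbols for 11437, which carry 75.3% of the counts. Smart-seq2 has no molecular identifiers, so several reads can be copies of 1 molecule. Intervals and limits treat reads or cells as independent, and leave out such copies and the spread between embryos.

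Counts were summed per embryo and label. Genes with TPM over 1 in at least 3 of the 220 cells were tested with edgeR 4.0.16 under R 4.3.3 (TMM, glmQLFit and glmQLFTest, 1 model of 4 groups, Benjamini-Hochberg adjustment, threshold 0.05). The standard error is the log2 fold change divided by the square root of F. Levels are log2(CPM + 1) with TMM. No fitted size is given for genes with no count, or with 1 to 3 counts, in one of the 4 groups, apart from EPHA2 under 2 alternatives. For those with no count on one side a fold is a lower bound, the mean CPM of the other side over 3 counts in the pooled empty side. For others, ratios of pooled CPM carry exact 95% intervals from scipy 1.17.1 under Python 3.11.15. Other software was pandas 2.3.3 and matplotlib 3.10.9.

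Genes were named by a rule: the 6 markers, in each direction the 10 called genes with the smallest p, the 10 largest changes under the conditions given with them and the 5 highest levels with no count on the other side, and up to 4 called members of each of 27 gene lists (the 2 with the smallest p where none was called). Genes without a symbol, 395 of those called higher in M and ICM and 705 of those called higher in EPI, are counted but not named, and 2 genes that the rule names are not reported here. A few others were named for what was counted beside them, after their values were seen. Members and lists were chosen with earlier results of these data known. Alternatives were no TMM, DESeq2 1.42.0, filterByExpr, no filter, limma 3.58.1 on mean log2(TPM + 1), sums of at least 2 cells, other treatments of cells of uncertain embryo, each set of 4 pools, all 7 lineages in one model, 2 groups, and each of the 23 sums left out. In simulated data, with 200 of 14595 genes changed 8-fold, edgeR recovered 46% with 8 false calls. The changed genes had a mean over 5 CPM, and the 2 groups of a side were drawn from the same mean. The data differ in both respects, so these figures do not give the error rates of the comparison. Sequences were not used here.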

Additional observations from a re-analysis of the deposited data

Results flagged for a closer look

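Outlying sums were looked for with Dixon's test in the genes given sum by sum, 9 genes and 33 groups with any spread, in which chance flags about 1 group in 20. There were 4. TBX3 was low in ICM embryo AI, a sum of a single cell, at 4.15 on the log2(CPM + 1) scale, against 6.50 to 8.11 in the other 6 ICM sums. It was at 0.15 in Sph EPI embryo E, which stands for 1 count, and at 0 in the other 3. ETNPPL was at 0.13 in Sph EPI embryo C, from 3 counts, and at 0 in the other 3. CLU was at 0.11 in M embryo U, from 1 count, and at 0 in the other 7.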

How the results depend on the processing

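No paired analysis was possible because the 4 groups come from different embryos. The 3202 genes called became 3188 under DESeq2 (1454 higher in M and ICM, or 45.6% of calls against 34%), 3242 without TMM, 3234 without a filter, 2493 with filterByExpr, 3441 with limma on TPM, 2748 with all 7 lineages and 3385 with 2 groups. DESeq2 shared 2300 of the 3202 calls and limma 2164. The first 4 pools alone gave 1979 calls, with 550 higher in M and ICM, and the last 4 pools 2066, with 1324 higher in EPI. Leaving out one sum gave 2586 to 3261 calls, 723 to 1129 higher in M and ICM (723 without Sph EPI embryo D) and 1722 to 2231 higher in EPI. Over all genes, the median log2 fold change of -0.18 became -0.11 without TMM and -0.01 with limma on TPM. Of 127 called genes named by the rule, 119 kept the call whichever sum was left out and 96 under all 35 alternatives. EPHA2 turned to 0.783 with limma and to 1.86 with 2 groups. Of the genes named in the text, calls were lost in the first 4 pools for ACVR1C, GDF3, PYGM and NQO1. In the last 4 they were lost for PHKA1, CYCS, MTHFD2, PPAT, RNF2, GSC, HBB and EPHA2. Calls were also lost with all 7 lineages for STAT2 and GDF3, and with limma for SMAD6. With 2 groups they were lost for ETV1, PYGM, PECAM1, KRT18 and APOA2, and without LB EPI embryo AO for CAV1 and PYGM. DESeq2 gave VSNL1 no adjusted p. ZP3, WNT10B, CDT1, NDUFB9, NDUFS5, COX17 and COX5A are given above. The group with the highest mean was under 1 CPM in 90 of the genes called higher in M and ICM and in 276 of those called higher in EPI. The cause of these changes was not tested.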
